A study of Mus musculus with 12 samples.

Results

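Colony-stimulating factors are the growth factors of myeloid cells, and 7 genes of this family were followed in mouse macrophages exposed to house dust mite (HDM) allergen: the ligand genes Csf1 and Csf3 and the receptor genes Csf1r, Csf2ra, Csf2rb, Csf2rb2 and Csf3r. They were taken by gene symbol from the 50559 symbols of the count table, and all 7 symbols were present. The choice of members was made with earlier results of these data known. The cells were bone marrow-derived macrophages from C57BL/6 mice, treated for 1 h with HDM allergen, an extract that provokes airway allergy, or with vehicle. RNA sequencing gave 6 HDM libraries and 6 vehicle libraries, numbered 1 to 6 in each treatment. No genetic change is named for either group, and the growth factor in which the marrow was cultured is not given in the sources used here. The labels do not tell whether each library had its own animal or culture. The p-values therefore weigh differences only against the spread among these libraries, part of which may be technical.

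Macrophage colony-stimulating factor, the product of Csf1, binds the receptor tyrosine kinase encoded by Csf1r and keeps macrophages alive and dividing. Granulocyte colony-stimulating factor, the product of Csf3, is released by activated macrophages and other cells and raises the output of neutrophils through the receptor encoded by Csf3r. Granulocyte-macrophage colony-stimulating factor binds a receptor of an alpha chain from Csf2ra and a signalling beta chain from Csf2rb, which the receptors for interleukin-3 and interleukin-5 also use. Mice carry an additional beta chain gene, Csf2rb2, whose product serves interleukin-3.

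The ligand genes stood higher with HDM, and most receptor genes stayed within the spread between libraries. Csf3 rose 44.0-fold with HDM and was nearly silent with vehicle. Csf1 lay higher with HDM in every library number and rose 1.19-fold when libraries of equal number were compared. Csf2rb fell by 0.14 on the log2 scale in that paired comparison, while Csf1r, Csf2ra, Csf2rb2 and Csf3r were not called. Pairing by number was taken from the data, not from the labels. Without pairing neither Csf1 nor Csf2rb was called (adjusted p = 0.897 and 0.973, edgeR). In numbers 1 to 4 alone the paired calls of Csf1 and Csf2rb were lost (adjusted p = 0.051 and 0.0736, edgeR). Of the 7 genes, all of which passed the filter on low counts, 1 was called as higher without pairing and 0 as lower. Of all 13530 tested genes 5.37% were called, 2.9% as higher and 2.47% as lower. With pairing 2 of the 7 were called as higher and 1 as lower, beside 7.9% and 6.81% of all tested genes, or 14.7% in both directions. The median log2 fold change of the 7 was -0.04 in both fits, beside -0.00 over all tested genes.

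Counted reads per library ran from 19.8 to 119.7 M with HDM and from 19.7 to 62.4 M with vehicle. The libraries numbered 5 and 6 of both treatments stood apart from numbers 1 to 4 on the first principal component, at 27.8 to 36.1 against -21.7 to -10.1, which held 42.2% of the variance. Nothing in the labels says what these numbers share. Macrophage markers were abundant everywhere, with a summed level of 8 genes, Csf1r among them, of 17876 to 21349 CPM (counts per M reads) with HDM and 16802 to 21062 CPM with vehicle. By number the sum was 16802 to 18114 CPM in 5 and 6 and 17892 to 21349 CPM in 1 to 4. Most of it was Lyz2, with means of 11514 CPM with HDM and 11600 CPM with vehicle. Cd14 was the 1 marker of these 8 that was called, rising by 1.23 ± 0.15 SE on the log2 scale (adjusted p = 0.000162, edgeR). Markers of lymphocytes summed to at most 0.133 CPM with HDM and 0.213 CPM with vehicle. The 6 dendritic cell markers summed to 0.400 to 1.20 CPM with HDM and 0.311 to 0.835 CPM with vehicle. Of the 5 mast cell and basophil markers Mcpt8, Fcer1a and Prss34 were at 0 reads, while Cpa3 had 12 reads and Kit 420. These 5 summed to 2.07 to 2.26 CPM in numbers 5 and 6 and 0.145 to 0.420 CPM in numbers 1 to 4.

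**Figure D1:**
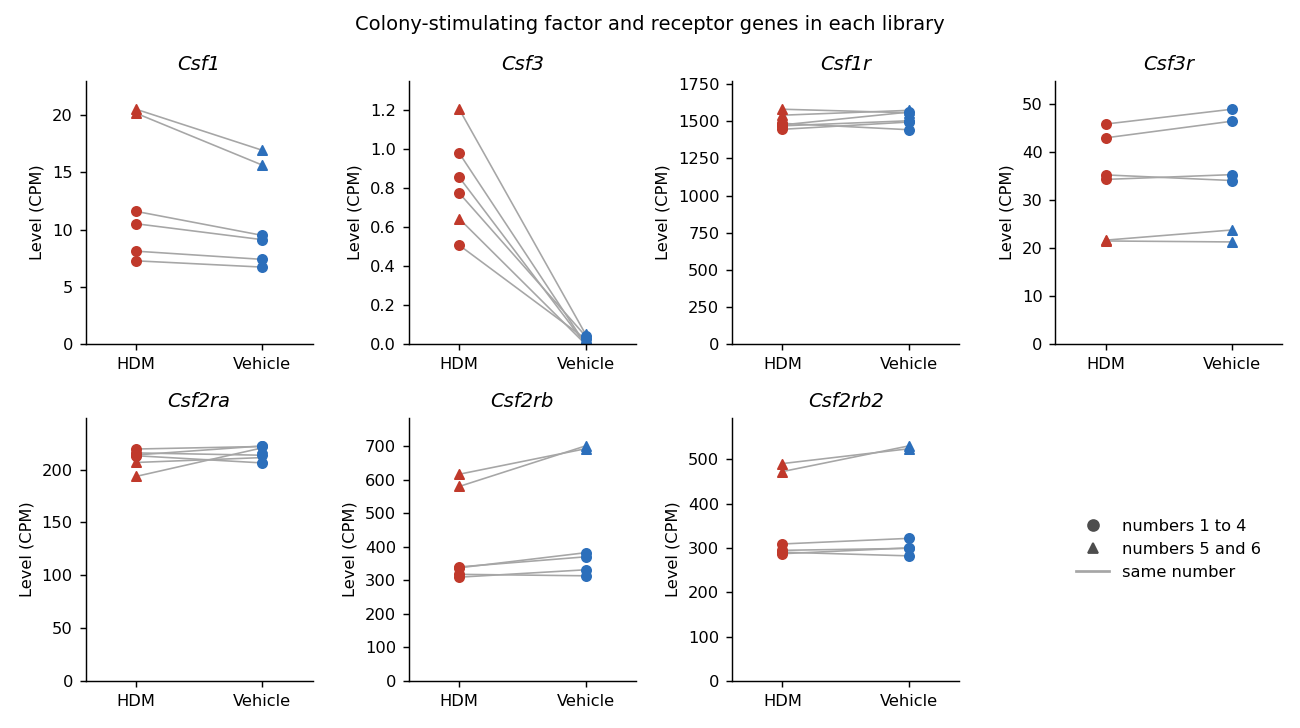
Level of each gene in CPM on a linear axis from 0, with HDM libraries on the left and vehicle libraries on the right of each panel, lines joining libraries of equal number, circles for numbers 1 to 4 and triangles for numbers 5 and 6. Csf3 separates the treatments without overlap, Csf1 lies higher with HDM along all 6 lines, and numbers 5 and 6 stand above the others for Csf1, Csf2rb and Csf2rb2 and below them for Csf3r.

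Csf3 gave the clearest response of the family. Its levels in HDM libraries 1 to 6 were 0.773, 0.977, 0.854, 0.506, 1.20 and 0.642 CPM, against 0.0420, 0, 0, 0.0269, 0.0518 and 0 CPM in vehicle libraries 1 to 6. Every HDM library lay above every vehicle library, a separation that 4.39% of all tested genes showed. In reads this was 248 with HDM, in 6 libraries, and 4 with vehicle, in 3 libraries. The ratio per M reads was 50.5, with an exact 95% interval of 19.5 to 187 that covers counting error only. The fitted log2 fold change was 5.46 ± 0.48 SE, with an adjusted p of 8.3e-06 in edgeR's quasi-likelihood test. Csf3 could enter the test only through its HDM libraries, so a gene with its vehicle level would be tested only if HDM raised it. Its mean of 0.825 ± 0.246 CPM with HDM (SD, n = 6) was still the lowest in the family, against 0.0201 ± 0.0234 CPM with vehicle (SD, n = 6).

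Csf1 was expressed with and without the allergen. HDM libraries 1 to 6 held 10.5, 11.6, 7.28, 8.12, 20.5 and 20.2 CPM, against 9.13, 9.50, 6.73, 7.41, 16.9 and 15.6 CPM in vehicle libraries 1 to 6. The ranges of the treatments overlap, also within numbers 1 to 4, while within numbers 5 and 6 both HDM libraries lie above both vehicle libraries. Numbers 5 and 6 carried 2.17 times the mean of numbers 1 to 4 with HDM and 1.99 times with vehicle. Within each number the HDM library was the higher one, with log2 differences of 0.11 to 0.37. Without pairing the log2 fold change was 0.28 ± 0.31 SE (adjusted p = 0.897, edgeR). With the replicate number as a block it was 0.25 ± 0.05 SE (adjusted p = 0.00174, edgeR), with a 95% interval of 0.14 to 0.35. In numbers 1 to 4 alone the blocked change was 0.20 ± 0.06 SE and lost the call (adjusted p = 0.051, edgeR). The unblocked change was 0.22 ± 0.14 SE in numbers 1 to 4 alone (adjusted p = 0.459, edgeR). In numbers 5 and 6 alone the unblocked change was 0.34 ± 0.07 SE (adjusted p = 0.00111, edgeR). Stromal and endothelial cells are other sources of this ligand. Their 7 markers, most of the signal being Kdr, summed to 14.1 to 39.2 CPM with HDM and 12.7 to 40.9 CPM with vehicle, and to 34.4 to 40.9 CPM in numbers 5 and 6 and 12.7 to 16.0 CPM in numbers 1 to 4, so they moved with Csf1 across numbers. Members of that list differed by treatment: Kdr was higher with HDM in 6 of 6 numbers but not called, at 0.12 ± 0.04 SE with the block (adjusted p = 0.0619, edgeR), whereas Col1a1 and Col1a2 were called as lower with the block, at -1.19 ± 0.23 and -0.84 ± 0.27 SE (adjusted p = 0.00141 and 0.0485, edgeR). The part of these cells in the level of Csf1 was not tested. Csf1 and Csf3 were the members that lay on 1 side in all 6 numbers, as did 17.9% of all tested genes.

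The stretch around the Csf1 start site is shown because Csf1 is the ligand gene with a measured level in both treatments and a RefSeq promoter window, and because one match to an NF-kB type motif lies in it. It is the RefSeq window from 250 bases before to 50 after the start, on build GRCm38.p6 at chr3:107760420-107760719, minus strand, written 5′ to 3′ with the motif match in capitals.
Csf1 promoter: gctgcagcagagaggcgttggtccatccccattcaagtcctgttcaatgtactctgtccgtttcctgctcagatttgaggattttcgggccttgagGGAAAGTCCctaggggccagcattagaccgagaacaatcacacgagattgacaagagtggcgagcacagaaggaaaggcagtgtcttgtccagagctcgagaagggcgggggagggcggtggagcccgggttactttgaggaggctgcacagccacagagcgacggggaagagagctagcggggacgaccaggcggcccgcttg
The motif was searched as GGANNTTCC on both strands, and the match lies on the opposite strand at -154 to -146 from the start. Of 32851 windows of this length in the RefSeq table, 4.26% hold it. The Csf1 window held no match to the AP-1 type TGANTCA, the CRE TGACGTCA, the C/EBP type TTGCNNAA, the ETS type GAGGAA or the TATA box TATAAA. These are matches of letters, and no binding was measured.

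Csf1r, the receptor gene by which macrophages read macrophage colony-stimulating factor, was the most abundant member and hardly moved. HDM libraries 1 to 6 held 1469, 1475, 1485, 1445, 1580.2 and 1540.1 CPM, against 1503, 1561, 1443, 1494, 1557 and 1573 CPM in vehicle libraries 1 to 6. The treatments overlap, and HDM was higher in 2 of 6 numbers. Its log2 fold change was -0.02 ± 0.04 SE (adjusted p = 0.971, edgeR), with a 95% interval of -0.10 to 0.05, and with the block it was -0.02 ± 0.02 SE (adjusted p = 0.586). The narrow interval rests on 452940 reads with HDM and 381775 with vehicle. The annotated pseudogene Csf1r-ps held 1 read over the 12 libraries.

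Csf3r, the receptor gene for granulocyte colony-stimulating factor, was present in these macrophages whether or not its ligand gene was induced. It stood at 35.2, 34.3, 42.9, 45.8, 21.6 and 21.5 CPM in HDM libraries 1 to 6, against 34.1, 35.3, 46.4, 48.9, 23.8 and 21.3 CPM in vehicle libraries 1 to 6. The spread followed the library number: numbers 5 and 6 held 0.545 of the mean of numbers 1 to 4 with HDM and 0.547 with vehicle. The log2 fold change was -0.07 ± 0.24 SE (adjusted p = 1, edgeR), and with the block -0.05 ± 0.03 SE (adjusted p = 0.392), with a 95% interval of -0.12 to 0.02. Neutrophils are the main carriers of this receptor, so neutrophil markers were read beside it. The 11 markers summed to 101 to 114 CPM in numbers 5 and 6 and 43.1 to 62.6 CPM in numbers 1 to 4, the opposite order to Csf3r, and their part in its level was not tested. By treatment the sum was 43.4 to 114 CPM with HDM and 43.1 to 104 CPM with vehicle. Most of it was Mmp8, at 67.1 ± 31.1 CPM with HDM and 63.7 ± 26.8 CPM with vehicle (SD, n = 6 each). S100a8 followed at 4.28 ± 0.964 CPM with HDM and 4.36 ± 0.842 CPM with vehicle (SD, n = 6 each). S100a9, Ngp, Ltf and Cxcr2 had 181, 152, 98 and 72 reads over all libraries, and Camp, Mpo and Elane 21, 17 and 8. Retnlg had no read, and Ly6g had 2 reads with HDM and 0 with vehicle. Fewer cells of a type and less RNA per cell cannot be told apart in such bulk samples.

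Csf2ra, the alpha chain gene that gives the receptor its specificity for granulocyte-macrophage colony-stimulating factor, was the steadiest of the receptor genes across library numbers together with Csf1r. Its levels were 219.5, 214, 213, 216, 207 and 194 CPM in HDM libraries 1 to 6, against 222, 222, 206, 214, 211 and 221 CPM in vehicle libraries 1 to 6. The lowest value was that of HDM library 6, and the ranges overlap. The log2 fold change was -0.04 ± 0.03 SE (adjusted p = 0.837, edgeR) with a 95% interval of -0.11 to 0.04, and -0.04 ± 0.03 SE (adjusted p = 0.43) with the block.

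Csf2rb, the common beta chain gene, had levels of 339.9, 337, 318, 309, 616 and 579.9 CPM in HDM libraries 1 to 6, against 370.1, 382, 313, 331, 692 and 701 CPM in vehicle libraries 1 to 6. Numbers 5 and 6 stood well above the rest, at 1.83 times the mean of numbers 1 to 4 with HDM and 1.99 times with vehicle. HDM was the lower library in 5 of 6 numbers, number 3 being the exception. Without pairing the log2 fold change was -0.16 ± 0.26 SE (adjusted p = 0.973, edgeR). With the block it was -0.14 ± 0.03 SE (adjusted p = 0.00396, edgeR), with a 95% interval of -0.20 to -0.07. In numbers 1 to 4 alone the blocked change was -0.09 ± 0.03 SE and lost the call (adjusted p = 0.0736, edgeR). Without block it was -0.10 ± 0.06 SE in numbers 1 to 4 alone (adjusted p = 0.433, edgeR). In numbers 5 and 6 alone it was -0.22 ± 0.03 SE without block (adjusted p = 5.98e-06, edgeR).

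Csf2rb2, the interleukin-3 beta chain gene of mice, ran alongside its neighbour. HDM libraries 1 to 6 held 295, 309, 290.4, 287, 490.3 and 472 CPM, against 299, 322, 282, 300.1, 524 and 530.1 CPM in vehicle libraries 1 to 6. As with Csf2rb, numbers 5 and 6 were the high ones and HDM was lower in 5 of 6 numbers. The log2 fold change was -0.07 ± 0.21 SE (adjusted p = 1, edgeR) and -0.06 ± 0.03 SE with the block, which was not called (adjusted p = 0.139). The called and the uncalled beta chain genes are not thereby shown to differ, so their ratio was examined within libraries.

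**Figure D2:**
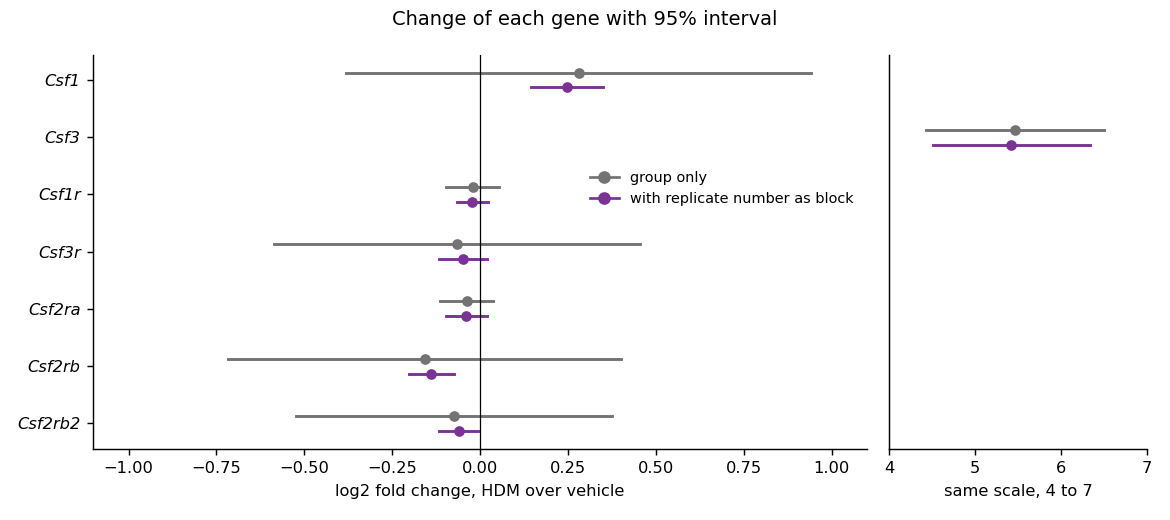
Log2 fold change of each gene, HDM over vehicle, with its 95% interval, from the fit with group only (grey) and with the replicate number as a block (purple), the right panel continuing the axis for Csf3. With the block the intervals of Csf1, Csf2rb and Csf2rb2 leave 0, which they include without it. Csf2rb2 was not called after adjustment over all genes.

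Csf2rb and Csf2rb2 are close copies that lie close together on chromosome 15 in opposite orientation, which bears on how far their reads can be told apart. In the longest coding transcripts of GENCODE M21 (build GRCm38), 2503 of 2628 aligned coding bases were identical, or 95.2%, and the longest identical run was 242 bases. Of all windows of 50 bases in the Csf2rb2 coding sequence 26.6% also occur in Csf2rb, and of windows of 100 bases 11.3%. The sources used here do not say how reads that match both were handled, so each gene's level is uncertain to that extent. The 90-base stretch with the most differences inside 1 exon of each gene is shown first, with the 16 differing bases in capitals, at chr15:78338897-78338986 on the plus strand for Csf2rb and chr15:78294345-78294434 on the minus strand for Csf2rb2.
Csf2rb: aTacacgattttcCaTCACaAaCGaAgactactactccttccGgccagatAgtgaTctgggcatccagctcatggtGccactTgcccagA
Csf2rb2: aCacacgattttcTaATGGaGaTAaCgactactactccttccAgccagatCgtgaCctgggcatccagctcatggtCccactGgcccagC
A stretch with 0 differences shows the other extreme, where a read of this length could have come from either gene. It reads the same at chr15:78341658-78341747 on the plus strand for Csf2rb and at chr15:78291563-78291652 on the minus strand for Csf2rb2, with no capitals because no base differs.
Both genes: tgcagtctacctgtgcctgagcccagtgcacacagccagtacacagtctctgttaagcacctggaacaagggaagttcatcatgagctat

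Within each number, the split of beta chain reads leaned slightly towards Csf2rb2 with HDM, a difference not called over the 12 libraries. Csf2rb2 took 46.4, 47.8, 47.7, 48.1, 44.3 and 44.9% of the reads of the pair in HDM libraries 1 to 6, against 44.7, 45.7, 47.4, 47.5, 43.1 and 43.1% in vehicle libraries 1 to 6. The HDM share was the higher one in all 6 numbers, by 0.378 to 2.12 percentage points, while the ranges of the treatments overlap. The mean was 46.5 ± 1.63% with HDM and 45.2 ± 1.98% with vehicle (SD over 6 libraries each), a difference of 1.31 points that a two-sided exact permutation test over the 12 libraries did not call (p = 0.234). Within numbers, the two-sided exact sign-flip permutation test gave p = 0.0312, the smallest value that 6 pairs allow. That test takes the number to pair the libraries, which the labels do not state. With the reads of both genes summed to 1 feature the log2 fold change was -0.12 ± 0.24 SE (adjusted p = 0.993, edgeR), and with the block -0.10 ± 0.03 SE (adjusted p = 0.0161, edgeR).

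**Figure D3:**
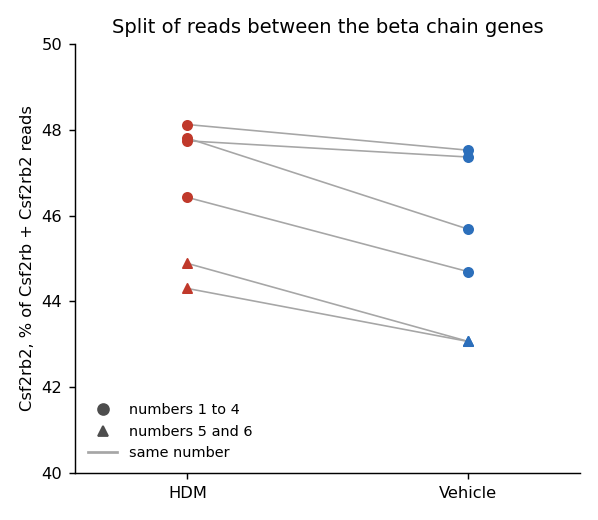
Share of Csf2rb2 in the reads of Csf2rb and Csf2rb2 together, in percent on an axis that runs from 40 to 50, for HDM libraries on the left and vehicle libraries on the right, with lines joining equal numbers. Each of the 6 lines is higher at its HDM end, and numbers 5 and 6 (triangles) have the lowest shares in both treatments.

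Levels of different genes were compared per kilobase of exon, with the exon lengths of GENCODE M21. Csf1r led with 259.6 ± 8.79 CPM per kilobase with HDM and 264 ± 8.75 with vehicle (SD over 6 libraries each). The beta chain genes and the alpha chain gene Csf2ra followed, with Csf2rb2 at 75.4 ± 20.4 CPM per kilobase with HDM and 79.3 ± 24.8 with vehicle, Csf2ra at 73.3 ± 3.23 and 75.3 ± 2.30, and Csf2rb at 57.3 ± 19.4 and 63.9 ± 24.9. Within libraries, Csf2rb2 stood above Csf2rb per kilobase in all 12. In reads the order was the reverse, with Csf2rb2 at 43.1 to 48.1% of the pair. The exon lengths were 7.277 kb for Csf2rb and 4.74 kb for Csf2rb2, against coding lengths of 2688 and 2634 bases. The order of the beta chain genes therefore depends on the length used. Csf2ra stood above both beta chain genes in the 8 libraries numbered 1 to 4 and below both in the 4 numbered 5 and 6, so the place of Csf2ra in the order depends on the library number. Csf3r came next at 9.30 ± 2.85 CPM per kilobase with HDM and 9.68 ± 3.13 with vehicle. Among the ligand genes, Csf1 stood at 2.47 ± 1.11 CPM per kilobase with HDM and 2.06 ± 0.819 with vehicle, and Csf3 at 0.584 ± 0.174 and 0.0142 ± 0.0166. The exon length of a gene counts exons of all its transcripts, so values of genes with long rare exons are understated.

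Genes that belong to the same receptor system but are not among the 7 were mostly silent or steady. Csf2, which encodes granulocyte-macrophage colony-stimulating factor, had too few reads to be tested: 15, 3, 1, 2, 0 and 4 in HDM libraries 1 to 6, against 0, 1, 0, 1, 0 and 0 in vehicle libraries 1 to 6. The total was 25 reads with HDM and 2 with vehicle, a ratio per M reads of 10.2 with an exact 95% interval of 2.54 to 88.8 for counting error. Il3 and Il5ra had 0 reads and Il34, which encodes the other ligand of the Csf1r product, had 0 with HDM and 1 with vehicle. Il3ra, the alpha chain gene of the interleukin-3 receptor, was detected at 33.6 ± 2.18 CPM with HDM and 33.4 ± 1.19 CPM with vehicle (SD over 6 libraries each). Of the 4 tested genes of this list of 10, edgeR called 0 with and without the block, beside 14.7% and 5.37% of all tested genes.

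Downstream of these receptors, Socs3 and Cish, feedback genes of the JAK-STAT arm, rose, while the feedback genes Socs1 and Socs2 and the Janus kinase genes were not called. Socs1 and Socs2 had log2 fold changes of 0.12 ± 0.20 and 0.68 ± 0.38 SE (adjusted p = 0.973 and 0.518, edgeR). Of 14 tested genes 5 rose and 0 fell, a share of 35.7% beside 5.37% of all tested genes. The median log2 change was 0.07 beside -0.00 over all tested genes. With the block the counts were equal, and the share over all tested genes was 14.7%. This list was chosen with earlier results of these data known, so its share is a description only. Socs3, whose product blocks signalling by the granulocyte colony-stimulating factor and interleukin-6 receptors, reached 55.8 ± 5.41 CPM with HDM, against 5.58 ± 1.93 CPM with vehicle (SD, n = 6 each). On the log2 scale it rose by 3.30 ± 0.20 SE (adjusted p = 2.25e-07, edgeR). Cish, a STAT5 target that restrains cytokine receptors, rose by 2.08 ± 0.22 SE on the log2 scale (adjusted p = 4.4e-05, edgeR). Pim1, a survival kinase gene, rose by 0.84 ± 0.12 SE on the log2 scale (adjusted p = 0.000858, edgeR). Stat5b, a transcription factor of this arm, and Bcl2l1, which encodes the anti-apoptotic protein BCL-xL, rose by 0.11 ± 0.03 and 0.15 ± 0.04 SE (adjusted p = 0.0423 and 0.038, edgeR). The Stat5b call was lost without any 1 of HDM 1, HDM 3, HDM 4, HDM 5 and vehicle 1 to 5 (adjusted p 0.0674 to 0.0965), and that of Bcl2l1 without HDM 1, HDM 4, HDM 5, HDM 6 or vehicle 1, 2, 3, 4 or 6 (0.0501 to 0.0913). Upper-quartile factors (0.102), total library size (0.15) and numbers 5 and 6 alone (0.34) also ended the Stat5b call, and testing every gene with at least 1 read ended both (0.207 for Stat5b and 0.101 for Bcl2l1). Summing the counts of neighbouring numbers ended both as well (adjusted p = 0.515 for Stat5b and 0.416 for Bcl2l1, edgeR).

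The kinase arm below the Csf1r product moved little. Of its 23 tested genes edgeR called 1 as higher and 0 as lower, a share of 4.35% beside 5.37% of all tested genes. That gene was Pik3r1, the regulatory subunit gene of PI3-kinase, at 117 ± 3.47 CPM with HDM and 103 ± 3.27 CPM with vehicle (SD, n = 6 each). Its log2 fold change was 0.18 ± 0.03 SE (adjusted p = 0.00286, edgeR). With the block Sos1 and Pik3cd were called too, at 0.13 ± 0.03 and 0.12 ± 0.03 SE (adjusted p = 0.00711 and 0.0145, edgeR). This made 3 of the 23 higher and 0 lower, beside 14.7% of all tested genes called with the block.

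The next lists, also chosen with earlier results of these data known, hold genes that control how colony-stimulating factor transcripts are made and destroyed. Of 11 tested transcription factor genes 4 rose and 0 fell, namely Fos, Jun, Rel and Ets2, a share of 36.4% beside 5.37% of all tested genes. With the block 7 rose, and the share over all tested genes was 14.7%. Fos and Jun, the AP-1 genes, rose by 2.68 ± 0.25 and 0.75 ± 0.05 SE on the log2 scale, and Ets2 by 0.64 ± 0.07 SE (adjusted p = 1.79e-05, 6.92e-07 and 7.33e-05, edgeR). Rel, an NF-kB subunit gene, was at 97.7 ± 13.3 CPM with HDM and 59.0 ± 5.31 CPM with vehicle (SD, n = 6 each). Its log2 fold change was 0.73 ± 0.09 SE (adjusted p = 0.00016, edgeR). Cebpb was called with the block only, at 0.52 ± 0.04 SE (adjusted p = 1.46e-07, edgeR), and so were Runx1 at 0.21 ± 0.03 SE and Irf8 at 0.10 ± 0.02 SE (0.000199 and 0.00745). Of 8 genes of mRNA decay and stability 4 rose and 0 fell, and with the block 6 rose, beside the same shares over all tested genes. Zfp36 and Zfp36l1, whose products bind AU-rich elements and promote decay, rose by 2.63 ± 0.13 and 1.74 ± 0.13 SE on the log2 scale (adjusted p = 3.53e-08 and 1.92e-06, edgeR). Zc3h12a, the gene of the RNase Regnase-1, rose by 0.33 ± 0.07 SE and Elavl1, the gene of the stabilising protein HuR, by 0.16 ± 0.03 SE (adjusted p = 0.0121 and 0.0137, edgeR). Rc3h1 and Rc3h2 were called with the block only (0.00135 and 0.0112).

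Shedding releases the colony-stimulating factor 1 ligand and its receptor from the cell surface. Adam17, the sheddase gene, was at 410.1 ± 23.9 CPM with HDM and 409 ± 23.3 CPM with vehicle (SD, n = 6 each), and its log2 fold change of 0.00 ± 0.05 SE was not called (adjusted p = 1, edgeR). Rhbdf2, which encodes the iRhom2 protein that brings ADAM17 to the surface, rose by 0.14 ± 0.03 SE (adjusted p = 0.0293, edgeR), the 1 call among 4 tested genes of that list without the block. Rhbdf1, the gene of the related iRhom1, was called as lower with the block only, at -0.31 ± 0.09 SE (adjusted p = 0.035, edgeR). Over all tested genes 5.37% were called without the block and 14.7% with it. Rhbdf2 lost the call with numbers 5 and 6 alone (0.0587), with every gene of at least 1 read tested (0.123), with upper-quartile factors (0.088), with total library size (0.132) and without any 1 of HDM 1, HDM 3, HDM 4, HDM 5, vehicle 1 and vehicle 4 (0.055 to 0.0694). Summing the counts of neighbouring numbers ended the Rhbdf2 call too (adjusted p = 0.377, edgeR).

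**Figure D4:**
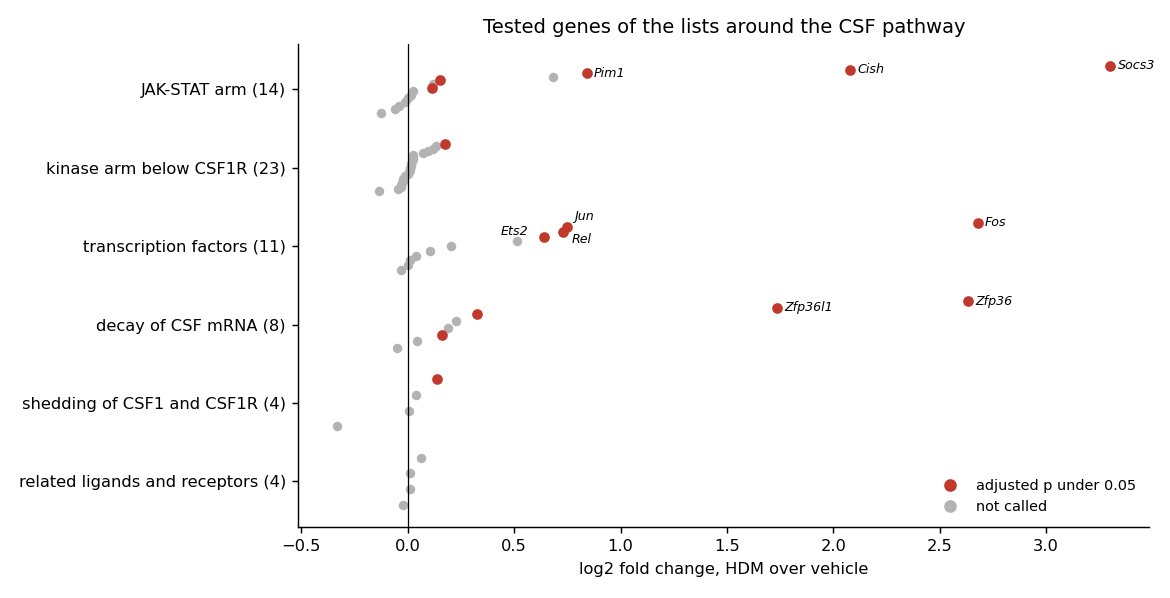
Log2 fold change, HDM over vehicle, of each tested gene in 6 lists around the pathway, with the number tested in brackets, red for an adjusted p under 0.05 and grey for genes not called. Socs3, Fos, Zfp36 and Cish reach the highest values, and the kinase list gathers around 0.

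The genes whose log2 CPM over the 12 libraries was most like that of Csf3, out of 10793 genes averaging 1 CPM or more, were Arid4a, Cxcl2 and Spry2, with Pearson r of 0.980, 0.977 and 0.976. The treatment sets this likeness, since the HDM and vehicle libraries form separate clusters, and after removal of the group means r was 0.582, 0.316 and 0.483. Those most like Csf1 were Ccr1, Il1rn and Fam78b, with r of 0.987, 0.984 and 0.984, and 0.992, 0.984 and 0.992 after removal of the group means. Here numbers 5 and 6 against numbers 1 to 4 form the clusters. The libraries differ in depth and the labels do not say what they share, so the values are a description.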

How the data were processed

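The deposited table holds raw counts per gene symbol, 1 column per library, and every column was matched to a sample by its library name. Alignment with STAR 2.6.0c and counting with featureCounts 2.0.6 (Subread) are named in the submitters' processing notes, as are cutadapt 4.5, Trim Galore 0.6.10 and FastQC 0.12.1. The builds GRCm38 and mm39 are both named there, with no role. The sources used here give no annotation, strand setting or treatment of reads with several matches. Per the labels' protocols, libraries were made with a TruSeq Stranded mRNA kit.

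Differences between HDM and vehicle were tested with edgeR's quasi-likelihood test (edgeR 4.0.16, limma 3.58.1, R 4.3.3) across all 13530 genes that passed filterByExpr, all 7 members included, with TMM factors and group as the only term, two-sided, Benjamini-Hochberg adjusted over all tested genes and called under 0.05. The standard error is the absolute log2 fold change divided by the square root of F, and levels are CPM with TMM factors. The scripts were tested on simulated data. Numbers 1 to 6 occur in both treatments. After subtraction of each group's mean, log2 CPM correlated at 0.367 to 0.672 between libraries of equal number, all above a bound of 0.1, so the number was taken to pair the libraries. This comes from the data, since the labels do not say what a number shares. In 2 of 6 cases the own number gave the highest correlation. Numbers 5 and 6 stood apart from numbers 1 to 4 in both treatments. The bound therefore cannot tell pairing by number from that split. The blocked value is given where it changes a call. DESeq2 1.42.0, limma-voom, other scalings, filters and sample sets were alternatives. Members, gene lists and tests were chosen with earlier results of these data known. Genes named are the members, called genes of the lists or up to 4 per list with the smallest p, and the 3 genes most like Csf3 and Csf1. Promoter windows came from RefSeq (GRCm38.p6), which matched 4 of the 7 members (Csf1, Csf2ra, Csf2rb2 and Csf3r). Protein identity of the beta chains was planned, and the coding sequences were compared in its place.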

Additional observations from a re-analysis of the deposited data

How the results depend on the processing

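Csf3 was called higher in every alternative run, with log2 fold changes of 4.95 to 6.03. Leaving out 1 library at a time gave 5.10 to 6.03 for Csf3, 0.11 to 0.44 for Csf1, -0.04 to -0.00 for Csf1r, -0.05 to -0.01 for Csf2ra, -0.30 to -0.00 for Csf2rb, -0.19 to 0.05 for Csf2rb2 and -0.18 to 0.06 for Csf3r, of which only Csf3 was ever called. Csf2rb2 turned positive without vehicle 5 (0.04) or vehicle 6 (0.050), and Csf3r without HDM 5 (0.03), HDM 6 (0.04), vehicle 3 (0.03) or vehicle 4 (0.058), none of them called. The number of members called stayed at 1 higher and 0 lower in those fits, the genes called overall at 303 to 403 higher and 233 to 291 lower (393 and 334 with all libraries), and the Csf2rb2 share difference at 0.880 to 1.77 points.

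With the replicate block 2 members were higher and 1 lower, and over all genes 1069 and 921. Csf1 was at 0.25 and Csf2rb at -0.14 (share difference 1.31 points, called by sign flips). Blocked values were, for Csf1 and Csf2rb, 0.25 and -0.14 with DESeq2, 0.26 and -0.14 with limma-voom, 0.23 and -0.16 with total size, 0.23 and -0.15 with upper-quartile factors, and 0.25 and -0.14 with neighbouring numbers summed, all called, with 2 members higher and 1 lower each time except with total size, where Csf2rb2 was called at -0.081 and 2 were lower. Without 1 number at a time Csf1 was at 0.22 to 0.27 (0.24 without number 2 or 5), Csf2rb at -0.16 to -0.11, Csf3 at 4.95 to 5.95, Csf1r at -0.03 to -0.01, Csf2ra at -0.05 to -0.01, Csf2rb2 at -0.08 to -0.04 and Csf3r at -0.07 to -0.03, with 2 members higher and 1 lower. With both beta chains summed it was -0.10. The blocked fits beyond the first were chosen after seeing the data. In numbers 5 and 6 alone, with 2 libraries per treatment, 2 members were higher and 2 lower (Csf1 0.34, Csf2rb -0.22, Csf2rb2 -0.13). Of all 13449 genes tested in that fit, 572 were higher and 567 lower. Numbers 1 to 4 alone gave 683 higher genes, and neighbouring numbers summed 87 higher and 32 lower, with fewer samples in the fit. For Pim1, Pik3r1, Ets2, Rel, Zc3h12a and Elavl1 that summing was the only alternative that lost the call. Csf3 rests on 252 reads in all, and Csf2 on 27.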

Other observations

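Among the other RefSeq promoter windows, that of Csf2ra held 1 match to the CRE TGACGTCA, which 1.79% of all windows hold, and 2 to the ETS type GAGGAA, which 28.3% hold. The Csf3r window held 1 match each to GGANNTTCC and GAGGAA, and the Csf2rb2 window 2 to GAGGAA. With every gene of at least 1 read tested, Csf2 had a log2 fold change of 2.84 ± 0.83 SE, which was not called (adjusted p = 0.121, edgeR), and was higher with HDM in 5 of 6 numbers.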
